A study of Mus musculus with 9 samples.

Results

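The genes described here encode the proteins of the cytosolic ribosome, the particle that translates messenger RNA. Members were the protein-coding genes whose symbol begins with Rpl or Rps and whose description begins with the words ribosomal protein, without the Rps6k kinases. The rule found 94 of 54532 genes. Of these, 46 encode proteins of the large subunit and 31 proteins of the small subunit. The rule also took in 8 paralogs (close relatives such as Rpl22l1), 8 genes whose symbols mark them as pseudogene copies, and Rps19bp1, which is named for binding the ribosomal protein Rps19 and is no part of the ribosome. Fau and Rack1 encode ribosomal proteins under other names, so they are given separately.

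Messenger RNA was sequenced in 9 libraries from RAW264.7, a mouse macrophage line that the labels trace to ascites and list as wild type. The 3 control libraries came from untreated cells. The 3 LPS libraries came from cells given lipopolysaccharide (LPS), a bacterial cell wall component that activates macrophages, at 1 µg/ml. The 3 LPS + H-CDs libraries came from cells given that dose of LPS together with H-CDs, a supplement whose name the labels do not spell out, at 400 µg/ml, and the design text gives 6 h for the cultures with LPS. The sources do not tell whether replicate libraries are independent cultures, and a p-value here then speaks only of the variation among these libraries, part of which may be technical.

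Each cytosolic ribosome holds 1 copy of nearly every ribosomal protein, so the cell needs the proteins in matched amounts. Their messenger RNAs are among the most abundant in dividing cells. In mammals most of them start with a run of pyrimidines (C or T), the 5′ terminal oligopyrimidine or TOP motif, through which the kinase complex mTORC1 and the RNA-binding protein Larp1 govern how strongly they are translated. Messenger RNA levels do not show that control of translation.

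The start sites of 66 members were found in the RefSeq promoter table (GRCm38.p6), which gives 250 bases before and 50 after each start. A run of at least 5 pyrimidines lay within 15 bases of the start in 49 of the 66 members (74.2%), against 51.5% of all 27025 genes in that table. The windows of 9 members with results below are printed to show how their starts differ. Each window holds 30 bases around the annotated start, read 5′ to 3′ on the gene's strand, and capitals mark the longest pyrimidine run where it reaches 5 bases.
Rps6, chr4:86857353-86857382, minus strand: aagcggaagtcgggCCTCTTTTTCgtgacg
Rpl4, chr9:64173372-64173401, plus strand: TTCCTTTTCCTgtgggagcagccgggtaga
Rps24, chr14:24490663-24490692, plus strand: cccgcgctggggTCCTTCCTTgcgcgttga
Rps18, chr17:33955651-33955680, minus strand: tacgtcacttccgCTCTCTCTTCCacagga
Rpl22l1, chr3:28805493-28805522, plus strand: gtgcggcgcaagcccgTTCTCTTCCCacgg
Rpl31, chr1:39367836-39367865, plus strand: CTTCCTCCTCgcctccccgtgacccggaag
Rps13, chr7:116334176-116334205, minus strand: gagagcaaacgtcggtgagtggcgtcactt
Rps15, chr10:80292416-80292445, plus strand: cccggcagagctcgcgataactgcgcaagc
Rpl24, chr16:55966260-55966289, plus strand: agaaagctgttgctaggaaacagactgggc
The first 6 windows hold a pyrimidine run of 9 to 11 bases and the last 3 hold no run of 5. In Rpl4 and Rpl31 the run ends before the annotated start, which follows base 15 of the window. A second annotated start of Rps24 has no run of 5 in its window. Among the motifs searched on both strands of these 300-base promoters, CCGGAAG, the core that ETS factors bind, was present in 39.4% of the members and in 9.93% of all genes. CTTTCC, a pyrimidine stretch, was present in 54.5% against 29.3%, and AAGATGGC, the YY1 core, in 9.09% against 3.19%. TATAAA, the TATA box, was present in 10.6% of the members and 15.7% of all genes. A match says only that the letters are there. The wide CTTTCC search can overlap the pyrimidine run.

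The deposited values are FPKM, fragments per kilobase of gene, scaled by a library size that the authors had adjusted. Recovered reads numbered 14377161 to 16069968 per library, and the 94 members took 3.67 to 4.66% of them. The macrophage genes Cd14, Cd68, Csf1r, Lyz2 and Spi1 had group means of 119 to 2226 FPKM, and Mertk was near 0. All 5 epithelial and all 5 fibroblast markers had group means under 0.04 FPKM. LPS + H-CDs replicate 1 stood apart in the messenger RNAs of the mitochondrial genome, which took 0.490% of its reads and 1.45 to 1.99% in the other libraries.

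Levels of the 77 subunit proteins spread widely. The large subunit proteins had mean levels over all libraries of 1.33 to 2031 FPKM with a median of 229, and the small subunit proteins 7.28 to 1161 FPKM with a median of 262. Of the 77, 53 reached 100 FPKM in every library. Rplp1, a protein of the ribosomal stalk that recruits elongation factors, was the highest member and held 1756, 1886 and 2151 FPKM in control, 1957, 2036 and 2286 FPKM with LPS, and 2063, 2145 and 1997 FPKM with LPS + H-CDs. Its groups overlapped. Rpl4, Rps3a1, Rpl8 and Rps15 followed, with means over all libraries of 786 to 1228 FPKM. The stalk base Rplp0 had 503 ± 69.3 FPKM in control (SD, n = 3 per group here and below), 515 ± 35.6 with LPS and 477 ± 53.4 with LPS + H-CDs. Rpl5 and Rpl11, which carry the 5S ribosomal RNA and can bind the p53 regulator Mdm2, had 220 ± 14.7 and 237 ± 24.6 FPKM in control. With LPS they had 244 ± 4.19 and 240 ± 27.0 FPKM, and with LPS + H-CDs 241 ± 13.1 and 232 ± 40.8 FPKM. Rps27a, whose protein is made as a fusion with ubiquitin, ranged from 139 to 257 FPKM in control, from 198 to 306 with LPS and from 267 to 274 with LPS + H-CDs.

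A total of 88 members reached 1 FPKM in at least 3 libraries and were tested. They included all 77 subunit proteins, 5 paralogs, 5 pseudogene-named copies and Rps19bp1. Of the other 6, Rpl10l, Rpl39l, Rpl36-ps4 and Rpl13a-ps1 had 0 reads in all 9 libraries. Rpl10l and Rpl39l are known as testis forms of Rpl10 and Rpl39. Rpl3l, a form of Rpl3 known from muscle, lay between 0.0421 and 0.485 FPKM and Rpl9-ps1 between 0 and 0.347 FPKM.

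The lowest subunit genes stood far below the rest, and their coding sequences are shared with other loci. Rpl24, Rpl21 and Rpl29, all of the large subunit, had mean levels of 1.33, 1.53 and 1.90 FPKM. In 66 of the 77 subunit genes more than 75% of the 31-base words of the coding sequence (GENCODE M21, GRCm38) also occur elsewhere in the annotated transcripts. A gene that holds at least 50% of those words is called a copy here, and 68 subunit genes had copies, 288 in all. In 11 subunit genes the copies together held more reads than the gene. Rpl29 had 295 reads over all libraries and its copies 18777, mostly on Gm13841, and Rpl26 had 1501 reads against 71624, mostly on Gm15772, both annotated as processed pseudogenes. Rps2 had 6020 reads and its copies 145109. How the authors assigned reads that match several loci is not given in the sources used here.

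Adding the reads of copies lifted the lowest subunit genes. Rpl29 moved from a mean of 1.90 to 122 FPKM, Rpl26 from 7.49 to 364, Rps2 from 23.7 to 593, Rpl24 from 1.33 to 14.4 and Rpl21 from 1.53 to 24.7. Of the 10 subunit genes under 50 FPKM, 9 had more reads on copies than on the gene itself, and with copies added 4 of the 77 remained under 50 FPKM. The deposited value of such a gene is the level of 1 locus as counted.

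**Figure D1:**
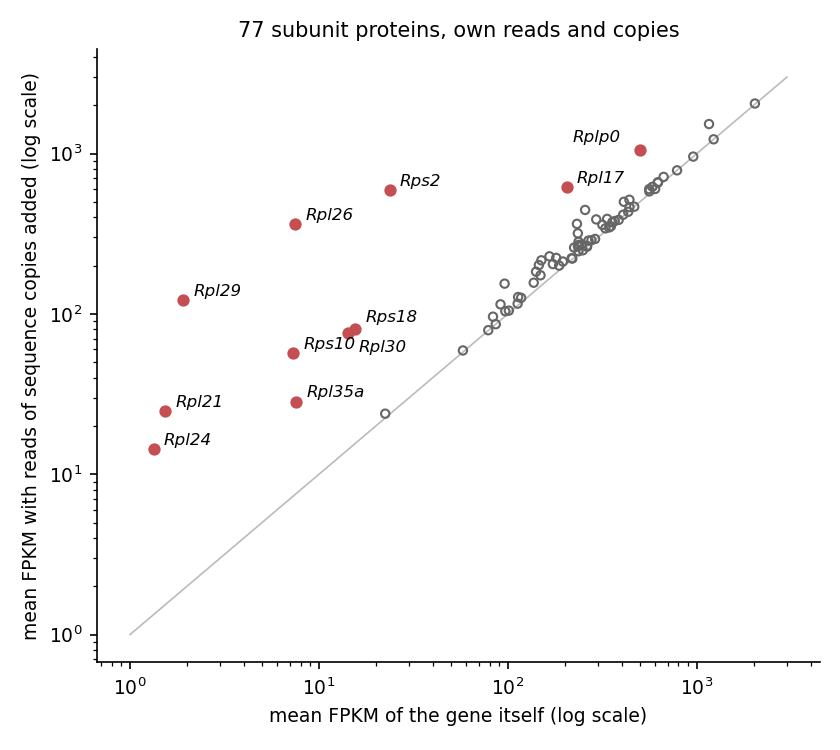
Mean FPKM over 9 libraries of each of the 77 subunit protein genes (x axis, log scale) against the mean after the reads of sequence copies were added (y axis, log scale); the line marks equal values. Filled points are the 11 genes with more reads on copies than on the gene itself, and the highest of them moves from 498 to 1046 FPKM (Rplp0), the lowest from 1.33 to 14.4 FPKM (Rpl24).

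Against control, LPS moved the ribosomal protein genes little for a stimulus that moved most genes. On the scale of the deposited FPKM, 10 of the 88 tested members rose and 0 fell, and 9 of the 10 did so by 1.15 to 1.35 times, the exception being Rps27rt. The median log2 fold change of the members was 0.15 on the log2(FPKM + 1) scale, and 81 of 88 were above 0. That direction depended on the scaling: the median was -0.13 with libraries scaled to total reads and -0.19 as TPM. Both of these scalings moved the median of all tested genes as well, from 0.03 to -0.22 and -0.27, so relative to all genes the members stood 0.13, 0.09 and 0.08 higher. On the deposited scale that offset was 0.06 without LPS replicate 3 or control replicate 1, and 0.17 without LPS replicate 1.

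The test was limma on log2(FPKM + 1) over all 11707 tested genes and 9 libraries, with an adjusted p under 0.05. It called 55.6% of all tested genes (28.8% higher and 26.8% lower), against 11.4% of the members. At an unadjusted p under 0.05, limma gave 14 members higher and 0 lower. On the recovered reads edgeR called 7 members higher and 0 lower, and DESeq2 13 and 0. All LPS libraries lay above all control libraries in 20 of the 88 members and below in 0, where 63.9% of all tested genes did not overlap, 33.2% above and 30.7% below. By total reads 0 members were higher and 5 lower, and as TPM 0 and 22. On these 2 scales the median of all tested genes was also below 0 (-0.22 and -0.27). The share of all genes called there is not given here, so these counts are no result about the members. The 10 calls became 4 without control replicate 1 or 2, 5 without LPS replicate 2, 3 without LPS replicate 3, 17 without control replicate 3 and, since all libraries share 1 fit, 16 without LPS + H-CDs replicate 1.

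Among the small subunit proteins, 4 of 31 rose on the deposited scale. Rps13 (ENSMUSG00000090862, chromosome 7, 116331505 to 116334195, GRCm38) held 92.2, 91.3 and 108 FPKM in control, 120, 130 and 135 with LPS, and 113, 124 and 106 with LPS + H-CDs. All LPS libraries lay above all control libraries. Its log2 fold change was 0.40 ± 0.09 (SE; limma adjusted p = 0.00369), the largest among the subunit proteins called, and it was 0.12 by total reads and 0.06 as TPM. Rps20 held 90.3, 101 and 105 FPKM in control, 123, 120 and 133 with LPS, and 147, 123 and 114 with LPS + H-CDs. The control libraries were below all others (0.34 ± 0.10, limma adjusted p = 0.0171), while as TPM the value was -0.01. Rps24, which is mutated in some cases of Diamond-Blackfan anaemia in humans, went from 71.1 ± 7.53 to 84.1 ± 5.52 FPKM (0.24 ± 0.09, limma adjusted p = 0.0421), and the value turned to -0.10 as TPM and -0.04 by total reads. Rps18 went from 14.4, 14.5 and 16.1 FPKM to 18.2, 16.6 and 18.3 FPKM (0.23 ± 0.08, limma adjusted p = 0.0465), and its call ended once the reads of its copies were added (0.08, limma adjusted p = 0.453).

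Among the large subunit proteins, 3 of 46 rose on the deposited scale. Rpl7 held 286, 292 and 335 FPKM in control, 360, 367 and 376 with LPS, and 360, 370 and 346 with LPS + H-CDs. Its control libraries lay below all 6 others, and the log2 fold change for LPS was 0.28 ± 0.07 (limma adjusted p = 0.0106). Rpl4, among the most abundant members, held 1045, 1061 and 1204 FPKM in control, 1280, 1302 and 1362 with LPS, and 1304, 1274 and 1223 with LPS + H-CDs. Here too the control libraries were lowest (0.25 ± 0.08, limma adjusted p = 0.022). Rpl6 went from 286 ± 23.9 to 328 ± 10.3 FPKM (0.20 ± 0.07, limma adjusted p = 0.0461). In all 3 genes the sign turned by total reads (-0.01 for Rpl7, -0.03 for Rpl4, -0.09 for Rpl6) and as TPM (-0.07, -0.09 and -0.15).

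The remaining 3 calls were paralogs. Rpl22l1, a paralog of the large subunit protein Rpl22, went from 22.1 ± 4.53 to 29.8 ± 2.54 FPKM (0.43 ± 0.16, limma adjusted p = 0.0411). Rpl7l1, a relative of Rpl7, went from 53.0 ± 1.98 to 62.9 ± 5.11 FPKM (0.24 ± 0.07, limma adjusted p = 0.014), and this sign turned by total reads (-0.04) and as TPM (-0.10). Rps27rt, a retrogene copy of Rps27, went from 72.8 ± 6.02 to 146 ± 48.1 FPKM (0.93 ± 0.32, limma adjusted p = 0.0346). Of the 10 calls, 7 changed sign as TPM and 6 by total reads, and none passed the threshold in either direction under those scalings.

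**Figure D2:**
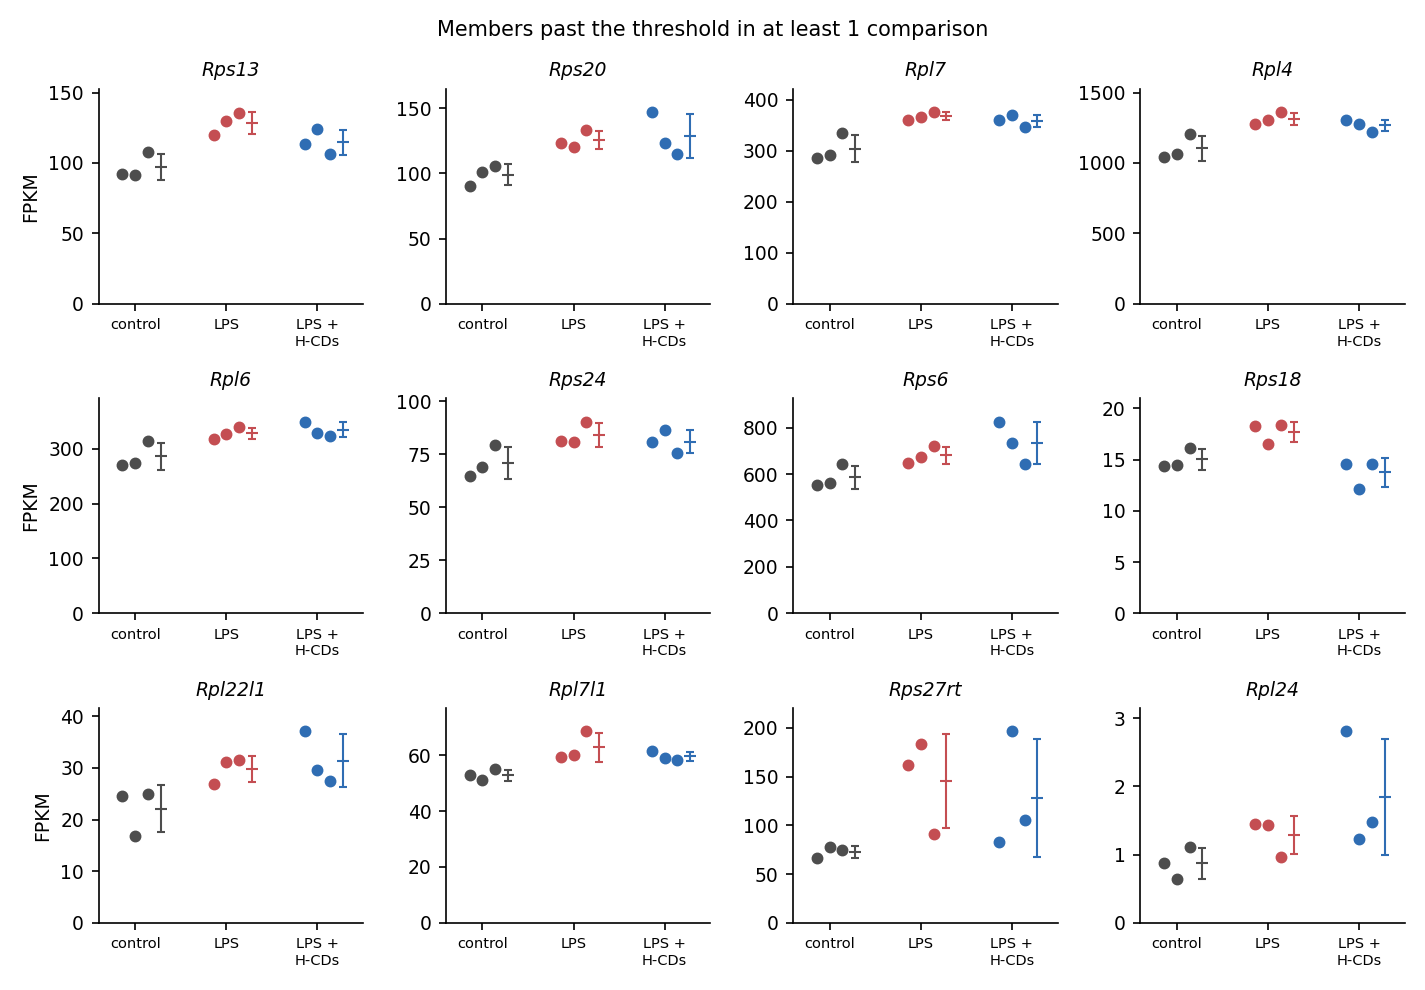
FPKM (y axis, from 0) of the 12 members past the threshold in at least 1 comparison, by group; points are the 3 libraries, bars the mean and SD. For Rps13 the 3 LPS libraries sit between 120 and 135 FPKM, above the control libraries at 91.3 to 108, on the deposited scale; as TPM the group difference of 7 of the 10 members called for LPS turns sign.

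Scaled so that the members' own median is equal in all libraries, a member stands out only against the other members. On that scale 0 members were higher with LPS and 1 was lower. The lower one was Rps15, a small subunit protein that sits near the decoding site, at -0.26 (limma adjusted p = 0.032). Its FPKM were 746, 905 and 892 in control, 728, 781 and 885 with LPS, and 631, 781 and 727 with LPS + H-CDs. On the deposited scale it was not called (-0.09 ± 0.12, limma adjusted p = 0.566) and its control and LPS libraries overlapped. By total reads (-0.37, adjusted p = 0.0182) and as TPM (-0.43, adjusted p = 0.004) limma called it lower, so its sign was negative on each of these scales.

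**Figure D3:**
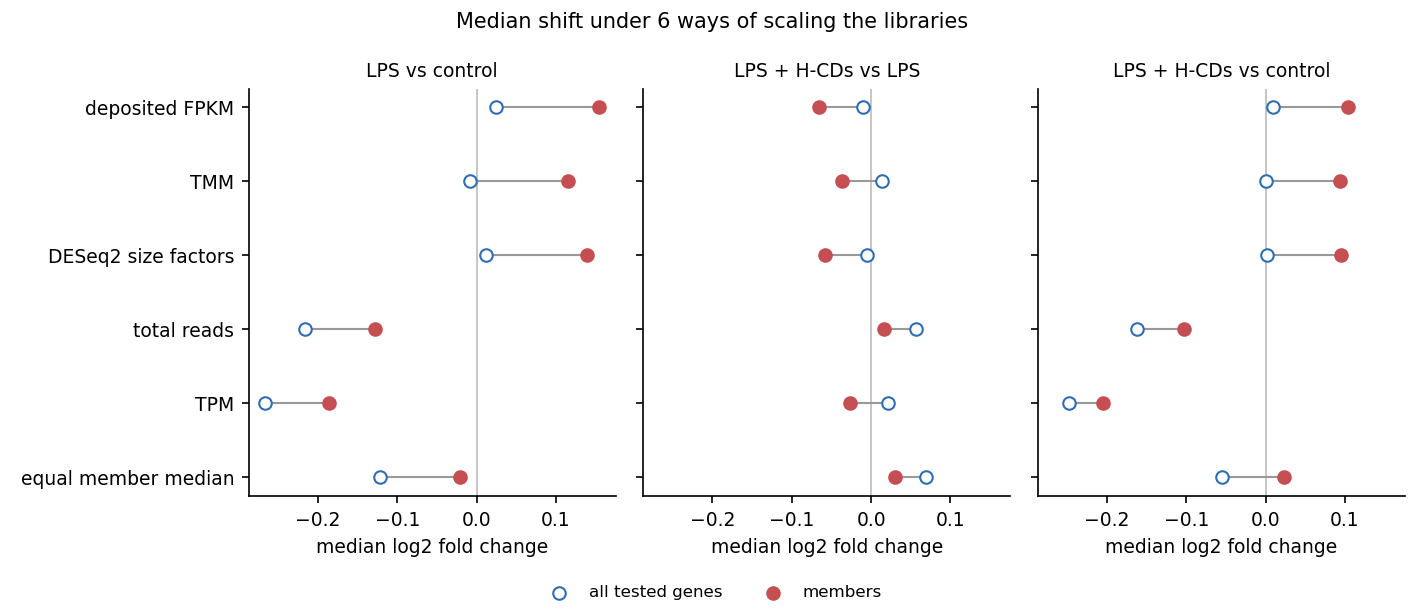
Median log2 fold change (x axis) of the 88 tested members (filled) and of all 11707 tested genes (open) in each comparison, under 6 ways of scaling the libraries (y axis). For LPS against control the members' median is 0.15 on deposited FPKM, 0.12 with TMM, 0.14 with DESeq2 size factors, -0.13 by total reads, -0.19 as TPM and -0.02 at equal member median, each time to the right of all genes.

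The share of the library taken by the members needs no scale between libraries. It was 4.37 ± 0.353% of reads in control, 3.94 ± 0.300% with LPS and 4.04 ± 0.155% with LPS + H-CDs, and the groups overlapped (3.98 to 4.66%, 3.67 to 4.26% and 3.86 to 4.14%). As a share of summed FPKM it was 8.38 ± 0.497%, 7.21 ± 0.433% and 7.14 ± 0.179%, and here all control libraries (7.81 to 8.67%) lay above all others (6.79 to 7.66%). Summed FPKM of the members went the other way, from 23260.5 ± 2033 in control to 25475 ± 1970 with LPS and 24539 ± 1152 with LPS + H-CDs, beside a sum over all genes of 277308 ± 8612 FPKM in control, 352983 ± 6592 with LPS and 343542 ± 7608 with LPS + H-CDs. These shares and sums of bulk RNA do not give the amount of RNA per cell.

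H-CDs on top of LPS called almost no ribosomal protein gene. Of the 88 tested members 0 rose and 1, Rps18, fell, and the median log2 fold change was -0.07 on the deposited scale. That sign turned by total reads (0.02) and at equal member median (0.03), and the median of all tested genes was -0.01 on the deposited scale. With 1 library left out the members' median ran from -0.11 to -0.01, the latter without LPS replicate 3. Limma called 15.6% of all tested genes in this comparison, 6.54% higher and 9.05% lower, and 1.14% of the members. At an unadjusted p under 0.05 it gave 0 members higher and 1 lower, and edgeR and DESeq2 on recovered reads each called 0 higher and 1 lower. All libraries with H-CDs lay above all LPS libraries in 0 of 88 members and below in 1, against 36.8% of all tested genes without overlap, 16.4% above and 20.4% below.

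Rps18 (chromosome 17, 33951999 to 33956001, GRCm38) lies in the head of the small subunit. It held 18.2, 16.6 and 18.3 FPKM with LPS and 14.5, 12.1 and 14.6 FPKM with LPS + H-CDs, so all libraries with H-CDs were lower. The control libraries, at 14.4 to 16.1 FPKM, overlapped those with H-CDs. The log2 fold change was -0.35 ± 0.08 (limma adjusted p = 0.0239), a level 0.776 times that with LPS. Rps18 itself took 5349 reads and its 3 copies 22803, most of them on Gm11361 (18760 reads), which is annotated as protein-coding. With the copies added the libraries held 79.8, 84.0 and 90.4 FPKM with LPS and 76.6, 82.5 and 74.8 FPKM with LPS + H-CDs, the groups overlapped, and the call ended (-0.12 ± 0.08, limma adjusted p = 0.361). It also ended without LPS replicate 1, without LPS replicate 3 and without LPS + H-CDs replicate 2 (limma adjusted p = 0.0835, 0.077 and 0.0719). The authors' deposited table, which compares these groups, lists 90 members, of which Rps18 (log2 fold change -0.35, adjusted p = 0.0203) and Rps29 (-0.36, adjusted p = 0.0224) had an adjusted p under 0.05. Of the 21576 genes listed there, 10.1% did. For Rps29, a small zinc-binding protein of the small subunit, limma gave -0.36 ± 0.18 (adjusted p = 0.228), with 138, 167 and 197 FPKM with LPS against 142, 129 and 117 with LPS + H-CDs.

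The fit gives an interval for the change of each member on the deposited scale, from the spread among these libraries alone. It holds no error of the scaling, and log2(FPKM + 1) understates changes of low members. For H-CDs on top of LPS the 95% interval lay within 1.5-fold in either direction for 72 of 88 members. It lay within 2-fold for 87. For all tested genes these shares were 76.1% and 92.5%. For LPS against control the interval lay within 1.5-fold for 67 members and within 2-fold for 87, beside 48.5% and 77% of all genes. For LPS + H-CDs against control it did so for 68 and 84, beside 51.6% and 79.1%. Across members the SE ran from 0.07 to 0.33 (log2) with a median of 0.12.

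A wide shift without a call came from 1 library. Rpl31, a large subunit protein at the exit of the peptide tunnel, is named here after its values were seen. Rpl31 held 225, 249 and 285 FPKM with LPS and 95.3, 244 and 211 FPKM with LPS + H-CDs, and the value of 95.3 belongs to replicate 1 (log2 fold change -0.56 ± 0.30, limma adjusted p = 0.239). In the same library Rps3a1 (1649 FPKM against 1174 and 974) and Rpl37a (292 against 225 and 170) were the highest of their group. Of the 88 members, 29 lay more than 0.25 (log2) from their group mean in LPS + H-CDs replicate 1, 14 above and 15 below, against 3 to 13 in each of the other 8 libraries. Over all tested genes the SD of these deviations was also widest there, 0.216 against 0.156 to 0.185. This is the library with few mitochondrial messenger RNA reads, and the part of either in the other was not tested.

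In control replicate 2 the members that code for short proteins stood high. The deviation of the 77 subunit genes from their group mean had a Spearman correlation with coding length of -0.51 in that library, -0.62 in LPS replicate 3, 0.49 in control replicate 1 and 0.48 in LPS replicate 1. In control replicate 3 it was 0.42. These are descriptions across genes of 1 library, which share its depth and preparation. The 3 deviations of a gene in a group cancel out. Values of opposite sign within a group are therefore tied to each other and are not separate observations. The fold changes of these genes also correlated with coding length. The Spearman value was 0.38 for LPS + H-CDs against LPS, 0.33 for LPS + H-CDs against control and -0.01 for LPS against control. With the percentage of G and C in the coding sequence it was -0.11, -0.32 and -0.43 in that order. The cause of these correlations was not tested. In control replicate 2 Rps28, Rps29, Rpl37 and Rpl41 had 125, 203, 176 and 679 FPKM. In control replicates 1 and 3 Rps28 had 74.2 and 77.1, Rps29 133 and 129, Rpl37 114 and 129, and Rpl41 422 and 535 FPKM.

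**Figure D4:**
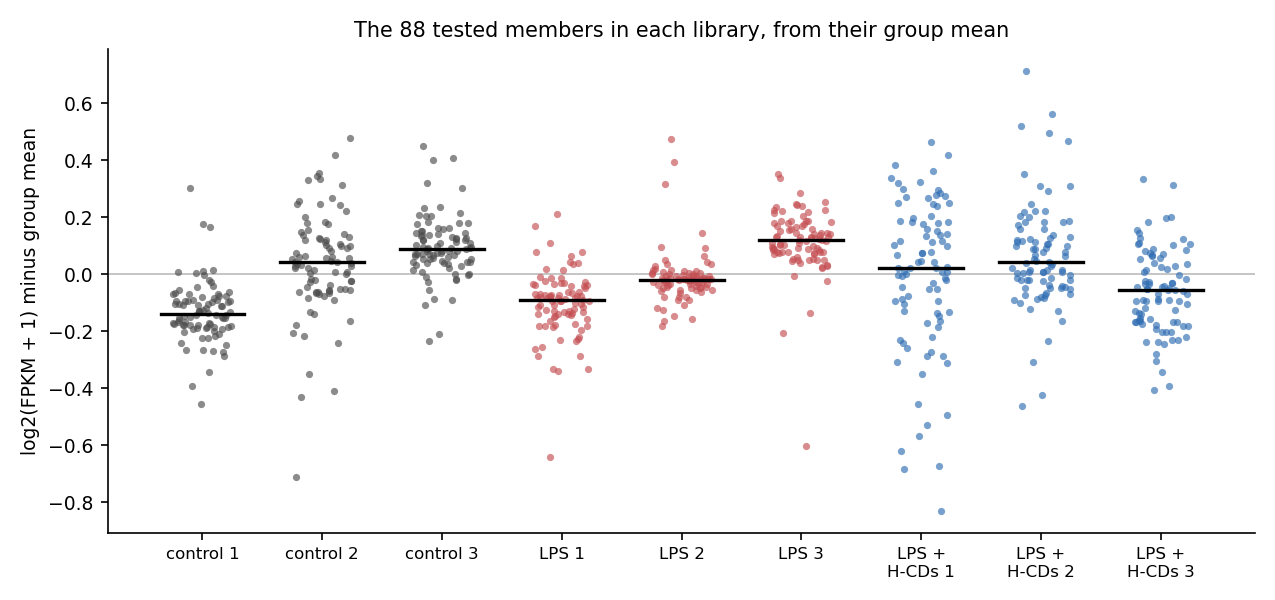
Deviation of each of the 88 tested members from its group mean (y axis, log2(FPKM + 1)) in the 9 libraries (x axis); black lines are medians. The median is -0.14 in control replicate 1 and 0.09 in control replicate 3, a gap wider than the shift of 0.15 between LPS and control (which turns negative by total reads and as TPM), and the points spread most in LPS + H-CDs replicate 1 (SD 0.269).

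Against control, LPS + H-CDs gave a picture near that of LPS alone, with the same control libraries in both comparisons. On the deposited scale 7 of 88 members rose and 0 fell, with a median log2 fold change of 0.10 that turned to -0.10 by total reads and -0.21 as TPM. By total reads 0 members were higher and 7 lower, and as TPM 0 and 33. The median of all tested genes was also below 0 on these scales (-0.16 and -0.25), and the share of all genes called there is not given here. Without control replicate 1 the median was 0.03. Limma called 52% of all tested genes (26.7% higher and 25.4% lower) and 7.95% of the members. At an unadjusted p under 0.05 it gave 13 members higher and 0 lower. On recovered reads edgeR called 11 higher and 1 lower and DESeq2 10 and 1, the lower one being Rps15 (edgeR adjusted p = 0.0398, DESeq2 adjusted p = 0.0292). All libraries with H-CDs lay above all control libraries in 14 members and below in 0, where 57.7% of all tested genes did not overlap, 29.7% above and 28% below. The 7 calls became 2 without control replicate 1, 1 without control replicate 2, 17 without control replicate 3, 4 without LPS replicate 2 and 3 without LPS + H-CDs replicate 2.

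Rps20, Rpl7, Rps13, Rpl6 and Rpl22l1 were called in both comparisons with control. Their log2 fold changes for LPS + H-CDs were 0.37, 0.24, 0.24, 0.23 and 0.50, beside 0.34, 0.28, 0.40, 0.20 and 0.43 for LPS alone, and the sign for Rpl7, Rps13 and Rpl6 turned as TPM (-0.07, -0.07 and -0.08). Rps6, the small subunit protein that S6 kinases phosphorylate downstream of mTORC1, held 555, 560 and 643 FPKM in control, 647, 674 and 721 with LPS, and 827, 735 and 645 with LPS + H-CDs. All libraries with H-CDs lay above all control libraries. Its log2 fold change was 0.32 ± 0.10 for LPS + H-CDs (limma adjusted p = 0.0272), 0.12 by total reads and 0.01 as TPM, and 0.22 ± 0.10 for LPS alone (adjusted p = 0.106). Rpl24 went from 0.874 ± 0.229 to 1.84 ± 0.851 FPKM (0.57 ± 0.20, limma adjusted p = 0.0402), but 1 library at 2.81 FPKM set the mean and 187 reads over all libraries stand behind the gene. With the reads of copies added its call ended (0.33, limma adjusted p = 0.158).

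**Figure D5:**
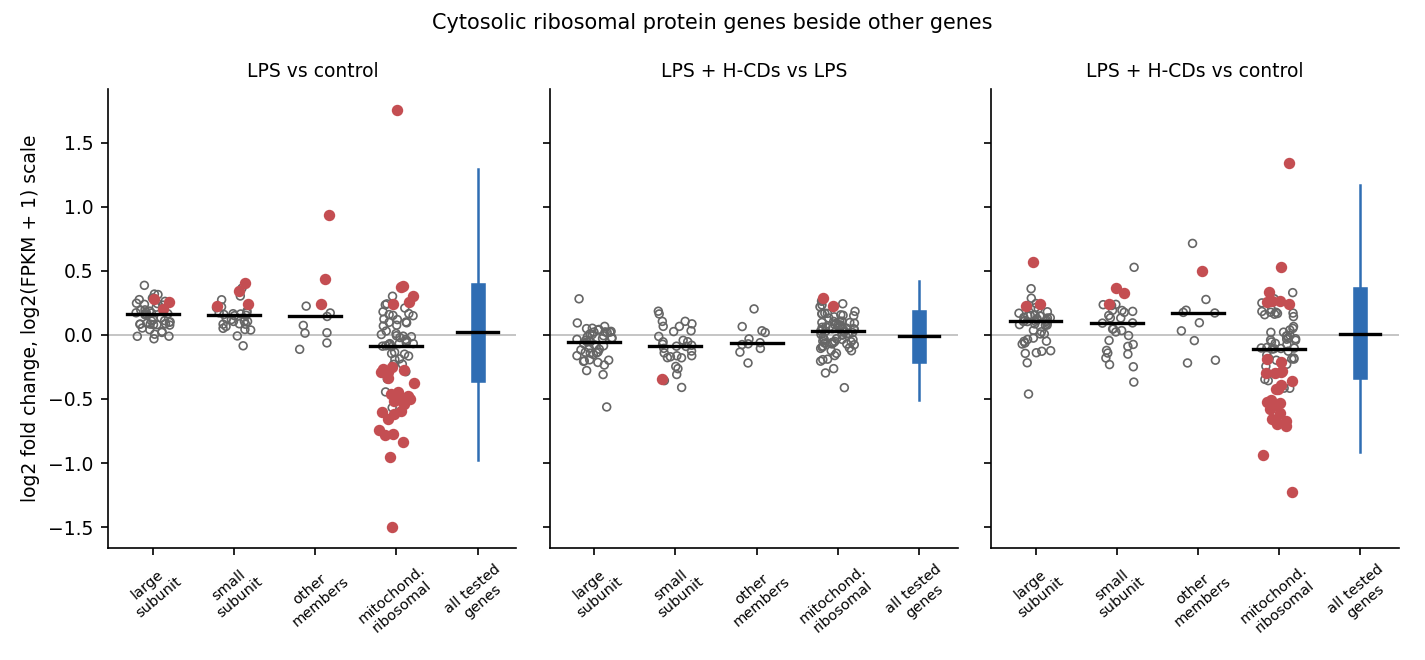
Log2 fold change (y axis, log2(FPKM + 1) scale) of the tested members by class, of 77 mitochondrial ribosomal protein genes and of all 11707 tested genes (box, middle 50%; line, 5th to 95th percentile) in each comparison; filled points passed an adjusted p of 0.05 and black lines are medians. The members sit close to 0 in all comparisons, with medians of 0.15, -0.07 and 0.10 on deposited FPKM; those against control turn negative by total reads and as TPM, and that of LPS + H-CDs against LPS turns positive by total reads.

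The ratio of a paralog to its parent does not depend on the scale between libraries. Tests were run on 5 pairs in 3 comparisons with exact 2-sided permutation tests, whose smallest possible p is 0.1, so none can pass 0.05 here. For each 100 FPKM of Rpl22 there were 32.4, 18.4 and 27.2 FPKM of Rpl22l1 in control, 33.9, 38.2 and 34.2 with LPS and 38.9, 33.4 and 34.1 with LPS + H-CDs. All control libraries lay below all others, by 0.48 on the log2 scale for LPS (exact p = 0.1, 0.3 after Benjamini-Hochberg adjustment over 15 tests) and by 0.48 for LPS + H-CDs (exact p = 0.1). Between LPS and LPS + H-CDs the ratio differed by less than 0.01 (exact p = 1). Rpl22 itself was 86.3 ± 9.08, 84.3 ± 6.70 and 88.3 ± 7.60 FPKM in the 3 groups. Both proteins bind RNA and can each take the same place in the large subunit.

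The coding sequences of this pair (GENCODE M21, GRCm38) are 67.5% identical, and bases 1 to 180 of each are printed to show that reads can tell them apart. Capitals in Rpl22l1 mark the 60 bases of this stretch that differ from Rpl22 or have no counterpart in it, and coordinates are those of the gene. The full coding sequences were aligned, so the last bases printed for Rpl22l1 face Rpl22 bases past 180.
Rpl22, chr4:152325742-152334071, plus strand: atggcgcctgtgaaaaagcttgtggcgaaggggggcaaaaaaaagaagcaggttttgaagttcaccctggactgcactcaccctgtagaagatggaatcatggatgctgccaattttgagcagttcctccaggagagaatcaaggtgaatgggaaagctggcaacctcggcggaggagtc
Rpl22l1, chr3:28805436-28807424, plus strand: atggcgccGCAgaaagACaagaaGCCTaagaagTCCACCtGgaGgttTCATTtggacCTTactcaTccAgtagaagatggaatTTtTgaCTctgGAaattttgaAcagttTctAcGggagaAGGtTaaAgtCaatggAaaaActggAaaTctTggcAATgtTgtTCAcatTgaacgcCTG

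The Rps27 family holds a pair without such differences. The 252 coding bases of Rps27 and of its retrogene Rps27rt are identical, with 0 mismatches, so reads within them cannot be told apart and the call of Rps27rt is uncertain. The paralog Rps27l differs at 60 of the 252 positions, marked by capitals.
Rps27, chr3:90212522-90213651, minus strand: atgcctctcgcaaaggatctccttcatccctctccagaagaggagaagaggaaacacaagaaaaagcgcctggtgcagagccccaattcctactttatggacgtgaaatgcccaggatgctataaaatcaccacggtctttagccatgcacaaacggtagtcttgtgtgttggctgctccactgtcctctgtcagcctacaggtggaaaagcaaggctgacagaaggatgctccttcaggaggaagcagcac
Rps27l, chr9:66946086-66949516, plus strand: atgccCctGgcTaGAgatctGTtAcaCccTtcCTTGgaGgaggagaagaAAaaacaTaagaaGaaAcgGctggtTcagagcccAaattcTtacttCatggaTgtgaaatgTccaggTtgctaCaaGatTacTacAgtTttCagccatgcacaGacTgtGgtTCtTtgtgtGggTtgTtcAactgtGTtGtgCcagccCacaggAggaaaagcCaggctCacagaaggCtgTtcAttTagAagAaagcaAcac
Rps27rt held 66.2, 78.0 and 74.2 FPKM in control, 162, 183 and 91.4 with LPS, and 82.6, 197 and 105 with LPS + H-CDs. Rps27 held 121, 156 and 139 FPKM in control, 131, 142 and 197 with LPS, and 90.3, 154 and 138 with LPS + H-CDs. In LPS replicate 3 the retrogene was lowest of its group and the parent highest. The sum of both was 187, 234 and 213 FPKM in control and 293, 325 and 289 FPKM with LPS. With LPS + H-CDs it was 173, 351 and 243 FPKM. In this sum the LPS libraries were above all control libraries, and those with H-CDs overlapped both groups. Over all libraries Rps27 had 20536 reads for a mean of 141 FPKM, and Rps27rt 5872 reads for 116 FPKM. A read therefore weighs more in FPKM at Rps27rt, and the sum still depends on how reads were split between both. Rps27l, a target of the transcription factor p53, was 173 ± 7.37, 175 ± 11.1 and 169 ± 28.6 FPKM.

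The other pairs follow. There were 17.5 ± 1.01 FPKM of Rpl7l1 for each 100 of Rpl7 in control, 17.1 ± 1.03 with LPS and 16.6 ± 0.572 with LPS + H-CDs, and the groups overlapped. Rpl36al stood at 2.16 ± 0.443, 2.15 ± 0.363 and 2.88 ± 0.118 for each 100 of Rpl36a, with all libraries with H-CDs above all others (exact p = 0.1 against each group), but its own level was 1.72 to 2.31 FPKM as a group mean. For Rps27l the ratio to Rps27 overlapped between groups in all comparisons. For Rps27rt it lay between 49.9 and 54.7 in control and between 76.6 and 128 with LPS + H-CDs (exact p = 0.1), and the LPS libraries, at 46.4 to 129, overlapped both.

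Fau and Rack1 passed no threshold on the deposited scale. Fau, which encodes a ubiquitin-like protein fused to a small subunit protein, was at 561 ± 68.4 FPKM in control, and its log2 fold changes were 0.18 ± 0.14 for LPS and 0.18 ± 0.14 for LPS + H-CDs against control. Rack1, a scaffold on the small subunit, held 245, 293 and 288 FPKM in control and 307, 301 and 314 with LPS (0.16 ± 0.08, limma adjusted p = 0.108), and as TPM it was called lower (-0.18, adjusted p = 0.0371).

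The ribosomal proteins of mitochondria serve a separate ribosome. Of 77 tested genes 6 rose and 25 fell with LPS on the deposited scale, where 28.8% of all tested genes rose and 26.8% fell, with a median log2 fold change of -0.09 beside 0.15 for the cytosolic members. As TPM the medians were -0.42 and -0.19, so the order of the 2 sets was the same while the sign of the cytosolic set turned. The 4 with the smallest adjusted p were Mrps6, Mrps35 and Mrpl49, which fell by 1.5, 0.96 and 0.84 on the log2 scale, and Mrpl52, which rose by 1.75. With H-CDs on top of LPS, 2 of 77 rose (Mrps23 and Mrps35) and 0 fell, where 6.54% of all tested genes rose and 9.05% fell.

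Genes that act with the ribosome are given by list, beside the 28.8% of all tested genes that rose and the 26.8% that fell with LPS. Those shares are for the deposited scale. The shares as TPM are not given here, and the median of all tested genes as TPM was -0.27. The difference between a list and the members was not tested. Of 22 other transcripts listed for a TOP motif, 14 rose and 2 fell with LPS on the deposited scale (median 0.25). As TPM 2 rose and 8 fell (median -0.10). The motif itself was not checked in these transcripts. Npm1, a nucleolar protein of ribosome assembly, held 501, 501 and 532 FPKM in control and 756, 737 and 808 with LPS (0.58 ± 0.10, limma adjusted p = 6.77e-04), and Vim, encoding vimentin, fell by 0.84 on the log2 scale. With H-CDs 0 of the 22 passed in limma, 2 at an unadjusted p under 0.05, where 15.6% of all tested genes passed. Of 34 initiation factors 21 rose and 2 fell with LPS on the deposited scale (median 0.28), and 9 and 11 as TPM (median -0.07). Eif4g2 held 154, 131 and 136 FPKM in control, 308, 291 and 295 with LPS, and 233, 232 and 225 with LPS + H-CDs. It rose with LPS (1.08 ± 0.07, limma adjusted p = 1.50e-06) and fell with H-CDs on top (-0.37 ± 0.07, adjusted p = 0.00835). Of 14 tested genes that rescue or sense stalled ribosomes 7 rose and 1 fell with LPS (3 and 3 as TPM), a share called near the 55.6% of all tested genes. Among them Map3k20, the kinase that senses collided ribosomes, went from 5.78 ± 0.371 to 14.4 ± 1.26 FPKM. Of 8 elongation and termination factors 4 rose and 3 fell, and as TPM 3 and 4.

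The list of mTORC1 and TOP control was mixed. With LPS 4 of 20 rose and 3 fell on the deposited scale, where 28.8% of all tested genes rose and 26.8% fell, and as TPM 1 and 9. Larp1, which binds TOP messenger RNAs, held 74.8, 76.5 and 64.4 FPKM in control, 116, 115 and 113 with LPS, and 89.1, 80.5 and 87.6 with LPS + H-CDs. It rose with LPS (0.67 ± 0.08, limma adjusted p = 5.92e-05) and was lower with H-CDs than with LPS alone (-0.42 ± 0.08, adjusted p = 0.00655). Eif4ebp2, an inhibitor of cap-dependent initiation, fell with LPS by 1.09 on the log2 scale, and Eif4ebp1, its relative, rose with H-CDs on top of LPS (0.59 ± 0.11, adjusted p = 0.00837). Mtor, the kinase itself, fell with H-CDs by 0.47 on the log2 scale. Rheb, of the same list, held 11.1, 11.5 and 11.6 FPKM with LPS and 16.3, 15.4 and 14.5 with LPS + H-CDs. With H-CDs on top of LPS, 3 of the 20 rose and 2 fell, where 6.54% of all tested genes rose and 9.05% fell. A list of transcription factors named in the regulation of ribosomal protein genes or of p53 also held the p53 regulator Mdm2. Of the 11 tested genes of this list, 7 rose and 1 fell with LPS. As TPM 5 and 3 did, and on the deposited scale 28.8% of all tested genes rose and 26.8% fell. Myc held 0.0881, 0.245 and 0.0419 FPKM in control, 33.9, 34.9 and 34.6 with LPS, and 15.3, 18.1 and 19.1 with LPS + H-CDs, with no overlap between any groups. Mycn, its relative, went from 305 ± 12.7 FPKM in control to 124 ± 8.15 with LPS and 125 ± 6.37 with LPS + H-CDs. The ribosomal protein genes themselves, in the same libraries, kept within 2-fold of control in 87 of 88 cases by the 95% interval for LPS on the deposited scale, as did 77% of all tested genes.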

How the data were processed

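Messenger RNA was enriched with poly-T beads, per the labels' protocols, and strandedness is not stated there. Per the submitters' processing notes the build was GRCm38 (mm10), while aligner and counter were not given in the sources used. The authors deposited FPKM for 54532 genes in 9 libraries, and a second table for LPS + H-CDs against LPS with a scaled signal per library, a log2 fold change, a p-value and an adjusted p. Multiplied by gene length, 100% of the FPKM came out as whole reads within a tolerance of 0.01 once divided by the value of 1 read in that library. Relative to the recovered total, the authors' library size was 1.13 to 1.15 for control libraries, 0.928 to 0.935 for LPS libraries and 0.983 to 0.993 for the libraries with H-CDs, so the direction of small shifts rests on it. Gene lengths were the authors'.

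Genes with FPKM of at least 1 in at least 3 libraries (11707) were fitted as log2(FPKM + 1) with limma 3.58.1 (R 4.3.3), 3 groups in 1 fit with a variance trend, and p-values were Benjamini-Hochberg adjusted over all of them at 0.05. Folds on this scale understate changes of low genes. Recovered reads were also fitted with edgeR 4.0.16 and DESeq2 1.42.0. Other settings were TPM, total reads, TMM, DESeq2 size factors, equal member median, a pseudocount of 0.1, no filter, FPKM of at least 5, each library left out, and reads of name-matched pseudogenes added. Adding copies by 31-base words and keeping only subunit proteins were chosen after seeing the data. The fit was tested on simulated data. Members and lists were chosen with earlier results of these data known.

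The set of named genes held the 8 highest and 8 lowest calls per comparison, and paralogs with parents. It also held the 5 highest and 5 lowest tested members by level, untested members, Fau and Rack1. From each list it took, per comparison, the 4 genes or fewer with the lowest adjusted p. Not every gene of the set is printed above, and no rule was set for which list genes are printed. Other members named were picked once their values were known. Column names with CD were read as H-CDs. Depth was 14377161 to 16069968 reads per library. Some items are not reported here.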

Additional observations from a re-analysis of the deposited data

How the results depend on the processing

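The count of members called higher with LPS, 10 on deposited FPKM, was 0 as TPM, 0 by total reads, 0 at equal member median, 6 with TMM and 4 with no filter on low values, and 3 to 17 when 1 library was left out. The count of members called lower with LPS, 0, became 22 as TPM, 5 by total reads and 1 at equal member median. The members' median for LPS, 0.15, became -0.19, -0.13 and -0.021 under these 3 settings and stayed between 0.08 and 0.20 with 1 library left out. For LPS + H-CDs against control the count called higher, 7, was 0 as TPM, 0 by total reads, 0 at equal member median, 1 with no filter, 2 with only these 2 groups fitted and 11 with edgeR, and 1 to 17 with 1 library left out. The count called lower, 0, became 33 as TPM, 7 by total reads and 1 each at equal member median, with edgeR and DESeq2 and with the replicate block, and 0 to 1 with 1 library left out. The median, 0.10, became -0.21 and -0.10, and 0.03 to 0.14 with 1 library left out. The cause was not tested. In both comparisons with control the median of all tested genes also fell below 0 as TPM and by total reads. The share of all genes called there is not given here. The single lower call for H-CDs on top of LPS, Rps18, became 0 by total reads, at equal member median, with no filter, and with pseudogene or copy reads added, and 0 to 1 with 1 library left out. Without LPS replicate 3 the members higher with LPS numbered 3, and without control replicate 3 they numbered 17. For LPS + H-CDs against control they numbered 1 without control replicate 2 and 17 without control replicate 3. Same-numbered libraries correlated by -0.12 to 0.20 in their deviations, and differently numbered ones by -0.17 to 0.17. With 3 libraries per group these values do not settle whether the numbers pair them. The replicate block gave 8 members higher with LPS, 1 lower for H-CDs on top of LPS, and 6 higher and 1 lower for LPS + H-CDs against control. The members' share changed from control to LPS + H-CDs by -7.48% of its value in reads (-11.4 to -4.25% with 1 library left out) and by -14.8% in FPKM. From LPS to LPS + H-CDs it changed by 2.58% in reads and -0.998% in FPKM.

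As TPM the sign turned for Rpl4 (-0.093), Rpl6 (-0.15), Rpl7 (-0.071), Rpl7l1 (-0.10), Rps18 (-0.10), Rps20 (-0.0056), Rps24 (-0.10), Rplp1 (-0.23), Rps27l (-0.33) and Rack1 (-0.18) with LPS. By total reads it turned for Rpl4 (-0.034), Rpl6 (-0.089), Rpl7 (-0.012), Rpl7l1 (-0.044), Rps18 (-0.047) and Rps24 (-0.042). For LPS + H-CDs against control it turned as TPM for Rpl6 (-0.081), Rpl7 (-0.067), Rps13 (-0.067), Rpl22 (-0.27), Rplp1 (-0.21), Rack1 (-0.23), Eif4g3 (-0.10) and Larp1 (-0.052), and by total reads for Eif4g3 (-0.0032). Over 186 named results, 3929 values under other settings kept their side of the threshold, 262 lost the call, 44 gained it and 25 turned sign with a call under at least 1 of both settings. Of the 3929, 144 had the other sign while called under neither setting, among them 30 by total reads, 23 as TPM and 23 at equal member median. Low members such as Rpl24 (187 reads) are limited by depth and by copies.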
